A study of Mus musculus with 130 samples.

Results

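Transcripts of 10 genes of hepatic stellate cells and fibrosis were followed in liver RNA of male mice fed different amounts of iron. The set is a list of symbols and comprises the fibrillar collagen genes Col1a1, Col1a2 and Col3a1, the basement membrane collagen gene Col4a1, the enzyme and inhibitor genes Lox and Timp1, the contractile and filament genes Acta2 and Des, the receptor gene Pdgfrb and the ligand gene Tgfb1. Each symbol matched a single Ensembl gene, so all 10 were found among 35274 genes of a diet study and among 35711 genes of a strain panel. The diet study used C57BL/6J mice, 3 per diet. The diets were chow, a diet with 50 ppm iron labelled sufficient, a diet with 500 ppm labelled elevated, 2% carbonyl iron (20000 ppm), and 2% carbonyl iron with cellulose as the source of fibre; the labels give neither an iron content for chow nor a fibre source for the other diets, nor the mice's age. The panel comprised 114 inbred and recombinant inbred strains, all on 2% carbonyl iron, with 1 mouse per strain except for 2 of 129X1/SvJ. Its mice had 4 weeks of chow and then 6 weeks of the iron diet, and no panel strain has a mouse on another diet. About 20 mg of the large lobe of each liver was used for RNA.

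Hepatic stellate cells lie in the space between hepatocytes and sinusoidal endothelium, store vitamin A when quiescent, and express desmin and the platelet-derived growth factor receptor beta. On injury they can turn into contractile myofibroblasts that express alpha smooth muscle actin and secrete fibrillar collagen, a change driven in part by transforming growth factor beta. Iron overload is a known setting of liver fibrosis. In RNA from whole tissue, fewer cells of a type and less RNA per cell cannot be told apart.

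Libraries of the diet mice summed to 10.4 to 20.4 M counts, and those of the strains to 9.41 to 20.6 M counts. Levels are CPM, counts scaled to the library size with TMM factors, or TPM, which are also scaled to transcript length, where genes are compared with each other, and a gene was called at a Benjamini-Hochberg adjusted p under 0.05 over all genes tested in the edgeR quasi-likelihood fit. Stellate identity genes were present in every diet group, with a summed level between 272 and 501 CPM over the 14 genes listed. The library labelled BXD65/RwwJ stood apart in the panel: 4 Y-linked genes summed to 3.94 CPM there and to between 118 and 328 CPM in the other 113 strains, although all mice are labelled male. The pairs of members called by permutation are also given without it, as are the share of genes and the members related to Col1a1. The other counts of related genes, pairs and list genes include this library and were not computed without it.

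Col1a2 and Col3a1 form a closely correlated pair across strains. Tgfb1 was only weakly correlated with Col3a1 but was called as related to Col1a2. The stretches upstream of these 3 genes are shown for this reason. They were taken from the RefSeq promoter table (GRCm38.p6), which matched 7 of the 10 symbols: Col1a2, Col3a1, Col4a1, Timp1, Acta2, Tgfb1 and Des. Each reads 5′ to 3′ on the gene's strand, from the 250 bases before the RefSeq start and without any base in an annotated GENCODE exon. Capitals mark matches on either strand to TATAA (the core of a TATA box), CCAAT (the CCAAT box), CAGAC (a SMAD element), GGGCGG (a GC box), TGACTCA (an AP-1 site) or the CArG box of smooth muscle genes. The CArG box was read as CC, then 6 bases of which at most 1 is not A or T, then GG.
Col1a2, chr6:4505370-4505492, plus strand: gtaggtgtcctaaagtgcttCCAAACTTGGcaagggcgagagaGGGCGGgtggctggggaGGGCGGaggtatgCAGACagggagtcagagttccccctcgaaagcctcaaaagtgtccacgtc
Col3a1, chr1:45311288-45311537, plus strand: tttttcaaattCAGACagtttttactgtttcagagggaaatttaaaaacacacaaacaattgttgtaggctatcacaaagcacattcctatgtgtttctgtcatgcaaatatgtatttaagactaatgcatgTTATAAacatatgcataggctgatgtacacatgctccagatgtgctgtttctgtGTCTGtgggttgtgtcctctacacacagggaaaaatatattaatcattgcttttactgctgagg
Tgfb1, chr7:25686752-25687001, plus strand: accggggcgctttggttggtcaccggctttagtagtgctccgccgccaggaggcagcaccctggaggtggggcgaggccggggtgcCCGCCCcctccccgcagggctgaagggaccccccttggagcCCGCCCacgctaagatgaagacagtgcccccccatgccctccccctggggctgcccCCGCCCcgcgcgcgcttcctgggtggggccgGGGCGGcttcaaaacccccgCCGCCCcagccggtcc
These 3 differ in composition. G and C made up 62% of the 250 bases before Col1a2, 35.2% of those before Col3a1 and 75.2% of those before Tgfb1, beside a median of 52.4% over 32851 such windows. The Tgfb1 window held 5 matches to GGGCGG, a motif present in 32.7% of all windows, and the Col1a2 window held 2. Col3a1 had none of these and instead 2 overlapping matches to TATAA (22.8% of windows) and 2 to CAGAC (42.2%). The CArG box, present in 8.59% of windows, had 1 match before Col1a2 and 2 before Acta2, CCCTATATGG and CCTTGTTTGG. CCAAT, present in 33.8% of windows, had 1 match each before Col1a2, Col4a1 and Timp1. The match before Col1a2 lies outside the stretch shown. Counts and composition are for all 250 bases, of which 123 are shown for Col1a2. No member window matched TGACTCA, which 4.46% of windows held. A match of letters is a description and was not tested as a binding site.

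Per transcript length, the order of the members in the diet mice was led by the basement membrane and type III collagens. On 50 ppm iron Col4a1 had 15.5 ± 3.97 TPM (SD, n = 3) and Col3a1 14.3 ± 7.56 TPM, which do not differ beyond their spread. Tgfb1 (4.44 ± 1.01 TPM), Col1a2 (3.55 ± 1.12 TPM) and Col1a1 (3.25 ± 0.686 TPM) followed and also overlapped. Pdgfrb, Des and Acta2 lay at 2.05 ± 0.466, 1.23 ± 0.384 and 0.804 ± 0.455 TPM. Timp1, a secreted inhibitor of matrix metalloproteinases, had 0 to 6 counts in any of the 15 diet mice, and Lox, which cross-links collagen, had 0 to 22. Both were left out of the edgeR fit by its filter on low counts, so 8 members were tested among 13560 genes.

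The member whose transcript rose on 2% iron was Col4a1, and the fibrillar collagens did not pass the test against 50 ppm. Col4a1 (ENSMUSG00000031502, chromosome 8, 11198423 to 11312826, minus strand, GRCm38) encodes a chain of type IV collagen of basement membranes. It measured 92.8, 81.9 and 85.7 CPM in the 3 mice on 2% iron, against 37.04, 50.95 and 61.4 CPM on 50 ppm. Every mouse on 2% iron was above every mouse on 50 ppm. The log2 difference was 0.80 (SE 0.16, 95% interval 0.46 to 1.14, edgeR adjusted p = 0.00524). This was 1 of 8 members called, in a comparison that called 15.7% of all genes tested and 8.52% as higher. On log2(TPM + 1) with limma the Col4a1 difference was 0.49 and did not pass (adjusted p = 0.142).

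**Figure D1:**
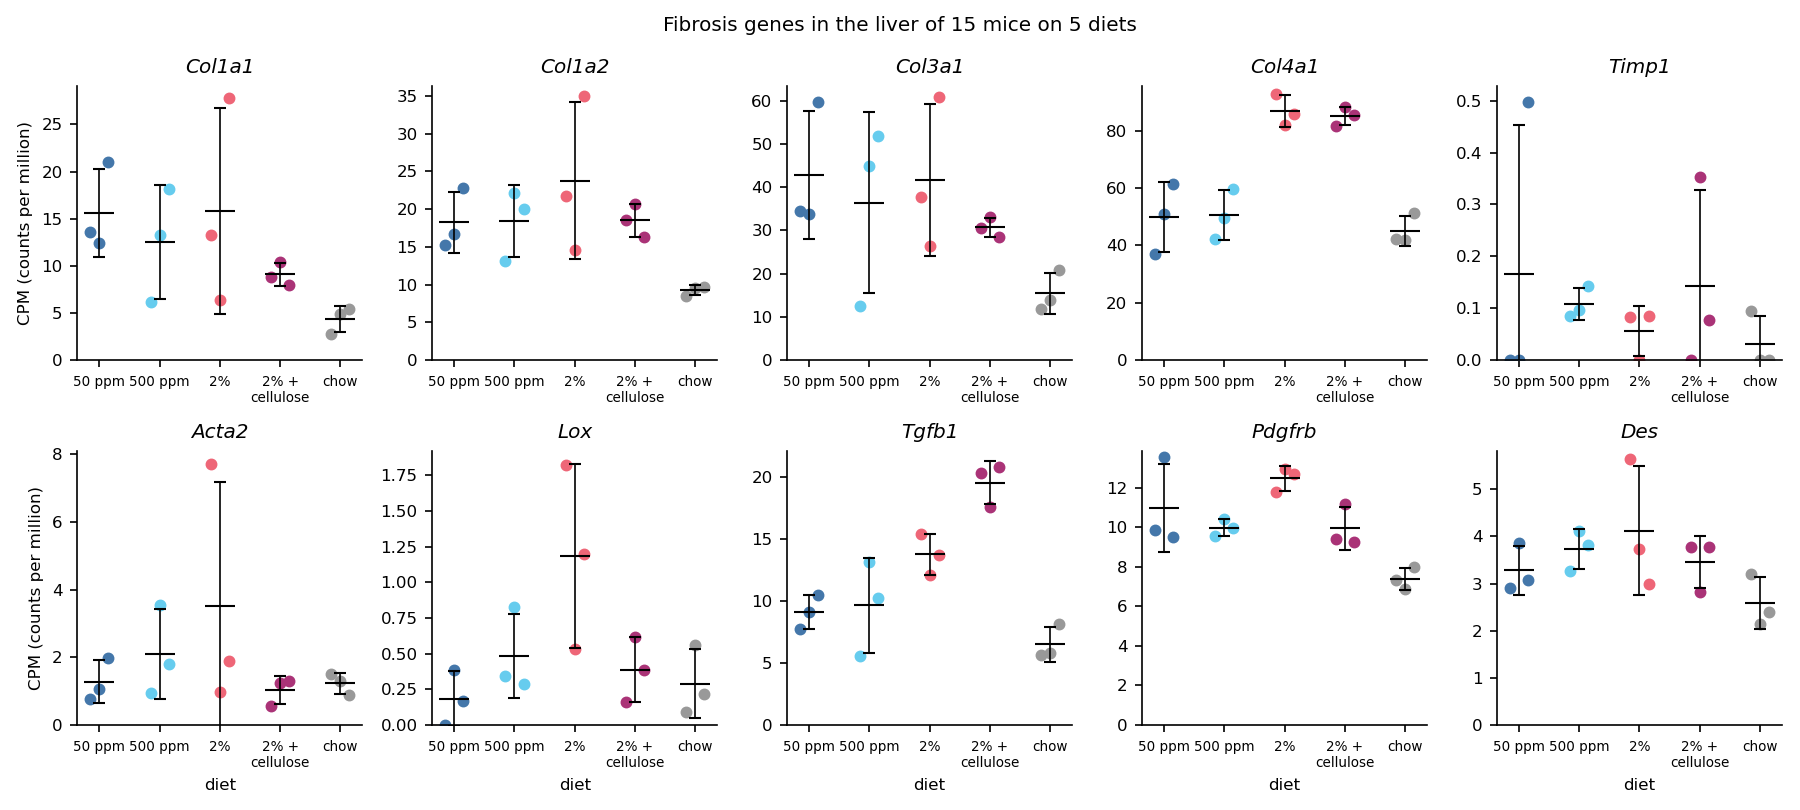
Level of each member in CPM (y axis, linear, from 0, its own scale per panel) for the 5 diets (x axis); points are mice, bars the mean and SD of 3 mice, with bars cut at 0 for Acta2 and other low genes. Col4a1 stands at 81.8 to 92.8 CPM in all 6 mice on 2% iron and at 37.04 to 61.4 CPM in the other 9, and Col1a1 is lowest on chow.

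The same level was reached with cellulose as the fibre. Col4a1 measured 81.8, 88.1 and 85.6 CPM there, and the difference from 50 ppm was 0.77 on the log2 scale (SE 0.16, edgeR adjusted p = 0.00312). On 500 ppm it measured 42.4, 49.4 and 59.7 CPM, within the range seen on 50 ppm. The difference of 2% iron from 500 ppm was 0.78 (SE 0.16, edgeR adjusted p = 0.00706), 1 of 8 members called beside 11.3% of all genes. With limma on log2(TPM + 1) that difference was 0.61 and was not called (adjusted p = 0.0784). Summed macrophage and sinusoidal endothelial markers were also higher on 2% iron. The 8 endothelial markers summed to 283 to 367 CPM on 50 ppm and to 441 to 457 CPM on 2% iron, with 2 of 8 called higher and 7 of 8 positive, while Lyve1 differed by -1.02 (edgeR adjusted p = 0.0827). The 12 macrophage markers summed to 118 to 192 CPM and to 443 to 477 CPM, with 8 of 12 called higher. Their part in the Col4a1 difference was not tested.

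Tgfb1, the gene of transforming growth factor beta 1 (ENSMUSG00000002603, chromosome 7, 25687002 to 25705077, plus strand, GRCm38), also did not overlap between 2% iron and 50 ppm; among the 8 tested members this held for Col4a1 and Tgfb1. It measured 15.4, 12.1 and 13.7 CPM on 2% iron and 7.76, 9.09 and 10.5 CPM on 50 ppm. Its log2 difference of 0.59 (SE 0.24, 95% interval 0.08 to 1.11) did not pass the edgeR test (adjusted p = 0.114), and 19.1% of all genes were likewise apart and higher. With cellulose Tgfb1 was at 20.3, 17.6 and 20.8 CPM. There its difference from 50 ppm was 1.10 (SE 0.24, edgeR adjusted p = 0.00415), so that 2 of 8 members, Col4a1 and Tgfb1, were called in a comparison that called 29.7% of all genes. Between the 2% diets Tgfb1 differed by 0.51 in favour of cellulose with no overlap of mice, as 8.06% of genes did, and an edgeR adjusted p of 0.372. Pdgfrb differed by -0.33, also with no overlap, as 9.34% of genes did in that direction (edgeR adjusted p = 0.323). No member was called in that comparison by edgeR or DESeq2, beside 0.0811% of all genes called by edgeR. An unadjusted edgeR p under 0.05 was found in 3 of 8 members and in 1757 of all 13560 genes. With cellulose against 50 ppm, Col1a1 (-0.79, adjusted p = 0.208) and Col3a1 (-0.48, adjusted p = 0.415) had no overlap of mice and lower values, as 22.1% of all genes did; neither was called. Col1a2 overlapped, at 18.5 ± 2.24 CPM with cellulose and 18.2 ± 4.01 CPM on 50 ppm (SD, n = 3), with a difference of 0.01 (adjusted p = 0.976).

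The fibrillar collagens showed a spread between mice of the same diet that was wider than the difference between 2% and 50 ppm iron. Col1a1, encoding the major chain of type I collagen (ENSMUSG00000001506, chromosome 11, 94936224 to 94953042, plus strand, GRCm38), measured 13.3, 6.40 and 27.8 CPM on 2% iron and 13.6, 12.4 and 20.97 CPM on 50 ppm. The log2 difference was 0.01, with a 95% interval of -0.93 to 0.96 (edgeR adjusted p = 0.986). On the TPM scale the same 3 mice on 2% iron had 2.36, 2.28 and 5.96, so the gap between the first and the second seen in CPM was not seen per length. Col1a2, the partner chain, differed by 0.38 (95% interval -0.19 to 0.95, edgeR adjusted p = 0.364). Col3a1, of type III collagen, differed by -0.04 (-0.93 to 0.85, adjusted p = 0.965). Pdgfrb differed by 0.19 (adjusted p = 0.374) and Des by 0.33 (adjusted p = 0.391).

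Acta2, encoding the alpha smooth muscle actin of myofibroblasts and vessel walls, was high in a single mouse. It measured 7.71, 0.978 and 1.88 CPM on 2% iron, 0.776, 1.06 and 1.99 CPM on 50 ppm, and 0.564, 1.24 and 1.31 CPM on 2% iron with cellulose. The first of these mice was the highest of all 15 and the other 14 lay at or under 3.54 CPM. The log2 difference between 2% and 50 ppm iron was 1.45 with an interval of -0.01 to 2.90 (edgeR adjusted p = 0.168). The mouse with the highest Acta2 was not the mouse with the highest Col1a1, Col1a2 or Col3a1, which was the third on 2% iron.

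Lox, although left out of the edgeR fit, had its highest counts on 2% iron. The counts were 22, 6 and 14 on 2% iron, 0, 4 and 2 on 50 ppm, 4, 17 and 4 on 500 ppm, 2, 7 and 5 with cellulose, and 1, 6 and 3 on chow. In CPM the 2% mice (0.533 to 1.82) lay above the 50 ppm mice (0 to 0.387), and the 500 ppm mice overlapped them. With no filter on low counts its log2 difference was 2.63 (edgeR adjusted p = 0.0547), and the value rests on few counts, with none in 1 mouse on 50 ppm. Lox passed the filter when any 1 of 13 mice was left out, with differences from 2.10 without the first mouse on 50 ppm (edgeR adjusted p = 0.146) to 3.60 without the second (adjusted p = 0.0416). Timp1 with no filter had a difference of -1.46 (edgeR adjusted p = 0.643) at these few counts.

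Over the 8 tested members the median log2 difference of 2% from 50 ppm iron was 0.36, beside 0.01 over all 13560 genes, and 7 of 8 differences were positive. For 500 ppm against 50 ppm the median was 0.02. No member was called there by edgeR, none had an unadjusted p under 0.05, and 0% of all genes were called, although 428 genes had an unadjusted p under 0.05. DESeq2 called no member in that comparison either.

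Chow gave the lowest Col1a1, Col1a2 and Pdgfrb levels of the study. Col1a1 measured 2.82, 4.84 and 5.38 CPM on chow, below every mouse on the other 4 diets, whose lowest value was 6.20 CPM. Col1a2 measured 8.55, 9.50 and 9.74 CPM on chow and at least 13.1 CPM elsewhere. Pdgfrb, the receptor for platelet-derived growth factor B on stellate cells and pericytes, measured 7.33, 6.89 and 8.00 CPM on chow and at least 9.24 CPM elsewhere. In these 3 genes no chow mouse overlapped any mouse on another diet. The share of all genes with chow below every other mouse was not computed. Against the 50 ppm mice alone, 8.23% of all genes were apart and lower on chow.

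Against chow, 2% iron thus had 6 of 8 members called, all higher, in a comparison that called 22.8% of all genes and 11.9% as higher. The largest difference was that of Col1a1, 1.85 on the log2 scale (SE 0.49, 95% interval 0.81 to 2.89, edgeR adjusted p = 0.0140). Col3a1 rose by 1.42 (SE 0.44, adjusted p = 0.0310), Col1a2 by 1.36 (SE 0.28, adjusted p = 0.00360) and Tgfb1 by 1.07 (SE 0.25, adjusted p = 0.00714). Col4a1 rose by 0.94 (SE 0.16, adjusted p = 0.00111) and Pdgfrb by 0.75 (SE 0.14, adjusted p = 0.00177). All 6 had no overlap between the groups, as 20.3% of all genes did in that direction. Acta2 differed by 1.54 (adjusted p = 0.122) and Des by 0.68 (adjusted p = 0.0647), and both overlapped. The median over the 8 members was 1.21, beside 0.01 over all genes.

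These calls differed in how far they rested on single mice. Without the third mouse on 2% iron, the Col1a1 difference from chow was 1.16 (edgeR adjusted p = 0.0864), and without the first chow mouse it was 1.63 (adjusted p = 0.0581). Col3a1 lost its call without the first or the third mouse on 2% iron (adjusted p = 0.054 and 0.141) or the first or the second chow mouse (adjusted p = 0.105 and 0.0991). Col1a2, Col4a1, Tgfb1 and Pdgfrb kept theirs whichever of the 15 mice was left out. The macrophage markers moved here too, with 10 of 12 called higher and a sum of 136.5 to 163 CPM on chow. The 14 stellate identity genes summed to 275 to 293 CPM on chow and 392.1 to 478 CPM on 2% iron, with 7 of 13 tested called higher. Whether these had a part in the collagen differences was not tested.

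**Figure D2:**
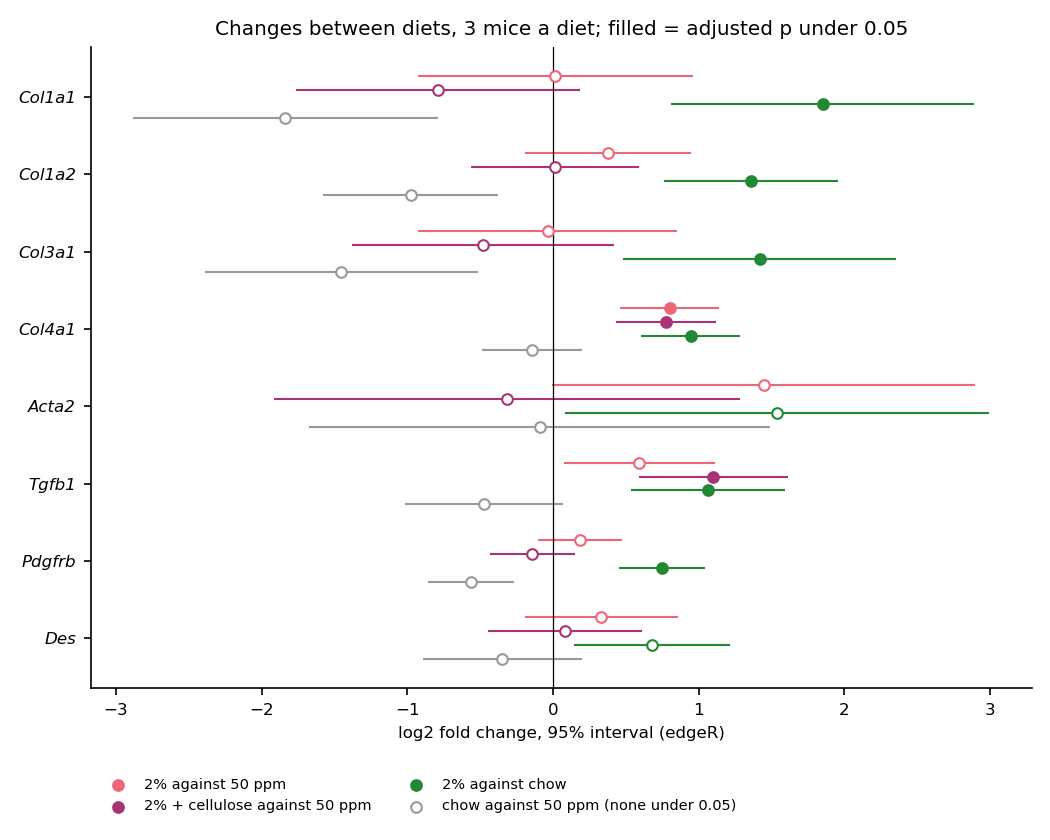
Log2 difference (x axis) with its 95% interval for the 8 tested members (rows) in 4 comparisons that share mice: 2% iron against 50 ppm, 2% iron with cellulose against 50 ppm, 2% iron against chow, and chow against 50 ppm. Filled points have an edgeR adjusted p under 0.05; Col4a1 is filled in the first 3, Tgfb1 with cellulose and against chow, and Col1a1, Col1a2, Col3a1 and Pdgfrb against chow.

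Chow and the 50 ppm diet were compared directly as well, and this comparison shares its mice with those above. All 8 tested members were lower on chow and none was called by edgeR, beside 0.391% of all genes called. An unadjusted edgeR p under 0.05 was found in 4 of 8 members and in 1408 of all 13560 genes. Col1a1 differed by -1.84 (SE 0.49, 95% interval -2.88 to -0.79, adjusted p = 0.169), Col3a1 by -1.45 (adjusted p = 0.234), Col1a2 by -0.98 (adjusted p = 0.204) and Pdgfrb by -0.56 (adjusted p = 0.128). These 4 did not overlap between the groups, as 8.23% of all genes did in that direction. DESeq2 called Col1a1 alone. Col4a1, at 42.3, 41.7 and 51.2 CPM on chow, lay within its range on 50 ppm and differed by -0.14. The median over the members was -0.52, beside 0.00 over all genes. The macrophage markers, at 136.5 to 163 CPM on chow, lay within their 50 ppm range of 118 to 192 CPM, and none of 12 was called.

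Genes that work with the members were followed in 8 lists of 105 genes, of which 98 were tested. On 2% iron against 50 ppm, 17 of them (17.3%) were called higher and 3 (3.06%) lower, beside 8.52% and 7.17% of all genes. Against chow it was 47 higher and 4 (4.08%) lower, beside 11.9% and 10.9%. With cellulose against 50 ppm it was 33 (33.7%) higher and 4 (4.08%) lower, beside 15.4% and 14.3%. The median log2 differences of 2% iron were 0.31 against 50 ppm and 0.65 against chow. Chow against 50 ppm had none higher and 3 lower, beside 0.125% of all genes lower, with a median of -0.31. In the fit with each mouse left out in turn, the number called higher on 2% iron against 50 ppm ran from 10 to 21 and was lowest without the third mouse on 2% iron or the first on 50 ppm.

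Among proteases and their inhibitors, 3 of 9 tested were called higher on 2% iron than on 50 ppm, beside 8.52% of all genes. Adamts1, a secreted metalloprotease, rose by 1.18 (SE 0.17, edgeR adjusted p = 0.000861). Timp3, a matrix-bound inhibitor of metalloproteinases, rose by 1.03 (SE 0.17, adjusted p = 0.00166). In both genes every mouse on 2% iron was above every mouse on 50 ppm.

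Of the stellate identity genes 2 of 13 were called higher on 2% iron than on 50 ppm. In this comparison 8.52% of all genes were called higher and 7.17% lower. Rgs5, a regulator of G protein signalling known from pericytes and stellate cells, measured 110, 111 and 95.9 CPM on 2% iron and 22.2, 27.8 and 33.2 CPM on 50 ppm. The difference was 1.93 (SE 0.25, edgeR adjusted p = 0.000489). In the processing list 2 of 12 were higher and 1 lower. P4ha1, a prolyl hydroxylase subunit needed for stable collagen helices, rose by 1.53, and Bmp1, which cleaves the carboxy-terminal propeptide of procollagen, differed by -0.43, a call lost without any of several single mice (edgeR adjusted p = 0.0465 with all mice).

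Of 18 matrix glycoproteins 5 were called higher and none lower, beside 8.52% and 7.17% of all genes. Thbs2, encoding thrombospondin 2, rose by 1.25 and Fbn1, of microfibrils, by 0.86; Thbs2 lost its call without the first mouse on 50 ppm, and Fbn1 without that mouse or the third on 2% iron. Of 18 genes of the transforming growth factor beta pathway, 1 was called higher and 1 lower. Skil, a negative regulator that the pathway itself can induce, rose by 1.10. Smad3, a signal transducer of that pathway, fell by 0.94 on the log2 scale (edgeR adjusted p = 0.00445). Of 13 other collagens 2 were higher and 1 lower. The lower one was Col5a3, at 24.6, 21.3 and 20.1 CPM on 2% iron and 72.3, 75.1 and 51.1 CPM on 50 ppm, a difference of -1.59 (SE 0.26, edgeR adjusted p = 0.00181). None of 5 genes of the platelet-derived growth factor pathway was called, and 2 of 10 contractile genes were higher.

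Against chow, 7 of 13 other collagens were called higher on 2% iron and 1 lower, beside 11.9% and 10.9% of all genes. Col5a2 rose by 1.87, Col6a1 by 1.67 and Col6a2 by 1.53, and Col5a3 fell by 1.498 on the log2 scale. Of 18 glycoproteins 12 were higher. Tnc, encoding tenascin C, rose by 2.06, Thbs2 by 1.51 and Postn, encoding periostin, by 1.49; Tnc lost its call without the first or the third mouse on 2% iron or the first or the second chow mouse. Rgs5 rose by 2.14. The genes called lower besides Col5a3 were Mmp19 (-0.61), Smad3 (-0.59, a call lost without any 1 of the 3 mice on 2% iron or the first or second on chow) and Smad2 (-0.45). With limma on log2(TPM + 1) none of these 3 was called (adjusted p = 0.116 for Mmp19, 0.0627 for Smad3 and 0.259 for Smad2). Contractile genes had 5 of 10 higher, the growth factor beta pathway 5 of 18 higher and 2 lower, and the platelet-derived growth factor pathway 2 of 5 higher.

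On chow against 50 ppm all 13 other collagens and all 18 glycoproteins had a negative difference, with medians of -0.83 and -0.45. Of all 13560 genes tested, 6662 had a negative difference. Among these collagens 8 and among these glycoproteins 11 did not overlap between the groups, as 8.23% of all genes did in that direction. The 3 genes called were Mmp14, Col5a1 and Col16a1. Mmp14, a membrane-bound collagenase, measured 28.6, 21.5 and 24.9 CPM on chow and 45.3, 52.3 and 53.2 CPM on 50 ppm, a difference of -1.01 (SE 0.14, edgeR adjusted p = 0.00924). Col16a1 differed by -1.18 (adjusted p = 0.0439) and Col5a1 by -0.88 (adjusted p = 0.0404). Mmp14 lost its call when the second or the third mouse on 50 ppm or the second chow mouse was left out, and the calls of Col16a1 and Col5a1 were lost without most single mice. Over all 98 genes the number called lower ran from 0 to 4 with single mice left out, and DESeq2 called 8.

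Across the 114 strains on 2% iron the highest level was 5.41-fold the lowest for Des and 94.7-fold for Col3a1, and no such ratio is given for Acta2, Lox and Timp1, whose lowest strains had 3 counts or none. Col1a1 ran from 0.294 CPM in BXD48/RwwJ, where it had 4 counts, over a median of 5.28 CPM to 27.6 CPM in KK/HlJ. Col1a2 ran from 1.03 CPM in BXD22/TyJ over 14.4 to 38.1 CPM in KK/HlJ. Col3a1 ran from 0.969 CPM in NZB/BlNJ, with 12 counts, over 21.4 to 91.8 CPM in BXA11/PgnJ. The low ends were set by single strains, and 90% of strains were above 2.35 CPM for Col1a1, 8.46 CPM for Col1a2 and 11.5 CPM for Col3a1.

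Col4a1 and Tgfb1 had narrower ranges. Col4a1 ran from 20.9 CPM in BXD34/TyJ over 59.9 to 138 CPM in AKR/J. Tgfb1 ran from 6.11 CPM in BXD18/TyJ over 15.7 to 41.8 CPM in BUB/BnJ. Pdgfrb ran from 3.73 CPM in A/J over 8.01 to 23.7 CPM in KK/HlJ, and Des, of the muscle-type intermediate filament desmin, from 1.36 CPM in SWR/J over 3.25 to 7.35 CPM in the library labelled BXD65/RwwJ. Acta2 ran from 0.220 CPM in BXD48/RwwJ over 1.27 to 10.2 CPM in that same library labelled BXD65/RwwJ. Without that library the highest levels were 5.84 CPM of Des, in KK/HlJ, and 4.96 CPM of Acta2, in BXD79/RwwJ.

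Lox and Timp1 were scarce in the panel too. Lox had no count in 9 strains and at most 1.94 CPM, in NZB/BlNJ. Timp1 had none in 40 strains, a median of 0.0786 CPM and at most 1.33 CPM (16 counts), in KK/HlJ. Per length, the medians over strains were ordered Col4a1 (17.8 TPM), Tgfb1 (8.55), Col3a1 (7.87), Col1a2 (2.94), Pdgfrb (1.61), Des (1.31), Col1a1 (1.10), Acta2 (0.874), Timp1 (0.127) and Lox (0.0798 TPM). The ranges of neighbours in this order overlapped.

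**Figure D3:**
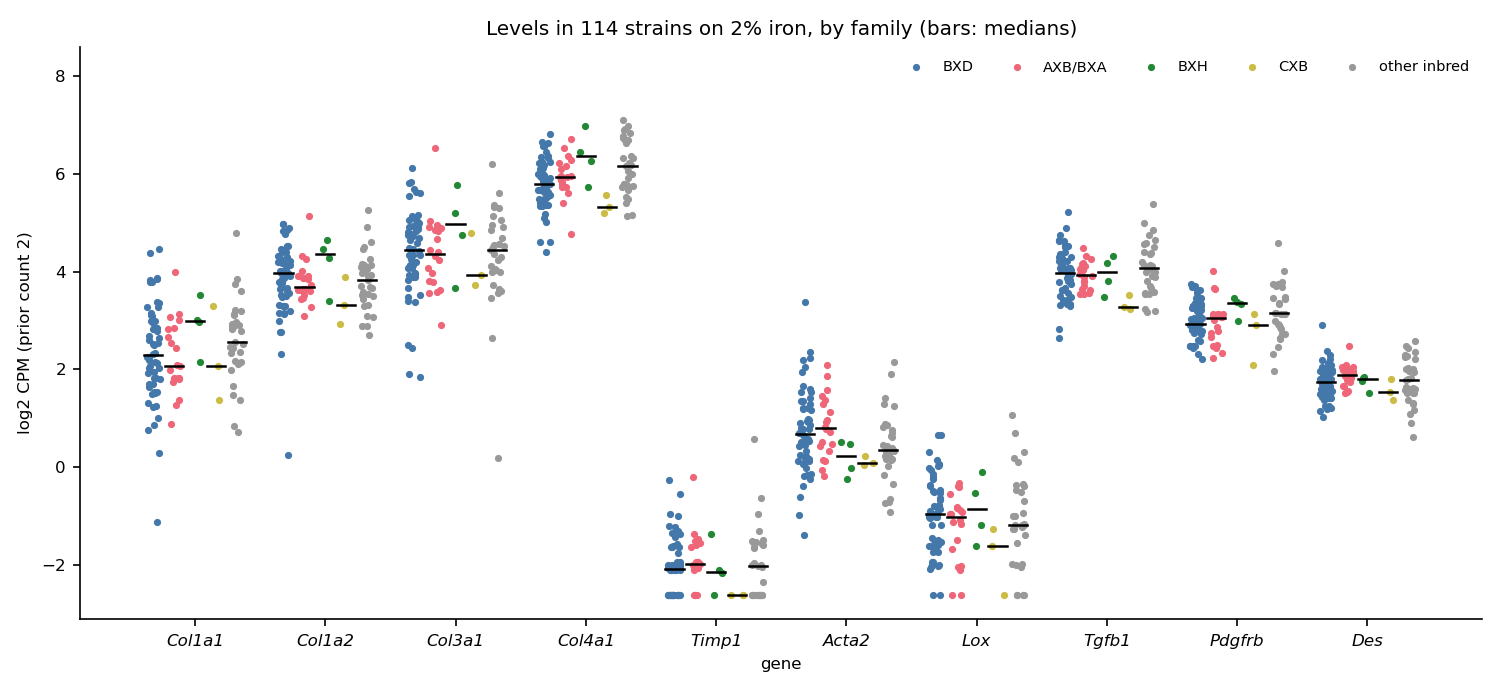
Level of each member across the panel in log2 CPM (y axis, prior count 2) by gene (x axis) and strain family (colour); each point is a strain and each bar a family's median. The fibrillar collagens have long low tails set by BXD48/RwwJ, BXD22/TyJ and NZB/BlNJ, and the families overlap in every member.

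A few strains recurred at the ends. KK/HlJ and BXA11/PgnJ were among the 5 highest strains for 6 of the 10 members, both for Col1a1, Col1a2, Col3a1, Timp1, Pdgfrb and Des. BTBR T<+> tf/J was among them for 5, Col4a1, Timp1, Lox, Tgfb1 and Pdgfrb, and the library labelled BXD65/RwwJ for 5, Col1a1, Col1a2, Acta2, Lox and Des. BXD48/RwwJ combined the lowest Col1a1 and Acta2 of the panel with 112.2 CPM of Col4a1, rank 7 of 114 from the top. The strain labelled BXD48a/RwwJ had 5.66 CPM of Col1a1 and 1.81 CPM of Acta2. NZB/BlNJ combined the lowest Col3a1 with the highest Lox, 9.77 CPM of Col1a2 and 99.7 CPM of Col4a1. Each of these is 1 mouse, so what belongs to the strain and what to the mouse cannot be told apart.

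The C57BL/6J mouse of the panel was not at an end: it ranked 42 of 114 for Col1a1 (6.93 CPM), 22 for Col4a1 (82.6 CPM) and 16 for Tgfb1 (22.4 CPM). DBA/2J, the other parent of the BXD strains, ranked 72 for Col1a1 (4.17 CPM), 94 for Col4a1 (44.97 CPM) and 109 for Pdgfrb (4.84 CPM). A/J, a parent of the AXB/BXA strains, ranked 100, 97 and 114 for these genes.

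No tested member differed between the BXD and AXB/BXA strains, the only families compared by a test. Between 56 BXD and 20 AXB/BXA strains, which share the parent C57BL/6J, 0 of 8 tested members were called by edgeR or by DESeq2. Of 13794 genes, 11.6% were called by edgeR. No member had an unadjusted edgeR p under 0.05, while 3472 of all genes did. Col1a1 averaged 6.24 ± 4.58 CPM (SD, n = 56) in BXD and 5.32 ± 3.22 CPM (SD, n = 20) in AXB/BXA. The median log2 difference over the members was 0.05, beside 0.01 over all genes.

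How far the members varied between strains was set beside the spread between mice of one diet group. The SD of log2 CPM between strains divided by that within the diet groups had a median of 1.65 over 13433 genes. Pdgfrb (2.92) and Col4a1 (2.48) were above that and Col1a2 (1.78) near it. Col3a1 (1.44), Col1a1 (1.42), Tgfb1 (1.42) and Des (1.28) were below it, and Acta2 was at 0.916. For Acta2 the ratio was 1.01 with the BXD strains alone, and its spread between mice was widest on 2% iron (SD 1.43 on the log2 scale), where 1 mouse had 7.71 CPM. With the mice on 2% iron alone the median over genes was 1.78. Col4a1 (7.14), Pdgfrb (3.79), Tgfb1 (3.10) and Col3a1 (2.11) were then above it, and Col1a2 (1.43), Col1a1 (1.24), Des (1.02) and Acta2 (0.717) below it. The pair of 129X1/SvJ mice had 2.97 and 7.93 CPM of Col1a1 and 1.37 and 1.36 CPM of Acta2. Ratios are a description, since the mice and the strains come from separate tables.

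The fibrillar collagens varied together across strains. Over the 36 pairs of the 9 members other than Timp1, every Pearson r of log2 CPM was above 0, with a median of 0.365. Without the library labelled BXD65/RwwJ 35 of the 36 were above 0, with a median of 0.333. With p-values adjusted over all genes, limma called from 0.172% (Acta2) to 25.5% (Tgfb1) of all genes as positively related to a single member. Of the 36 pairs, 22 were called in this way with either gene as the covariate. By permutation, adjusted over the 36 pairs, it was 31 pairs. The highest was Col1a1 with Col3a1 at r = 0.839 (rho = 0.849, permutation p = 1e-05 for both, the smallest that 100000 resamples can give). It was 0.894 in the BXD, 0.894 in the AXB/BXA and 0.782 in the other inbred strains, and 0.821 without BXD48/RwwJ and KK/HlJ, the strains farthest from the median.

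Col1a2 followed both. Its r was 0.792 with Col3a1 (rho = 0.828, permutation p = 1e-05) and 0.782 with Col1a1 (rho = 0.798, permutation p = 1e-05). Within the BXD, AXB/BXA and other inbred strains these were 0.853, 0.856 and 0.693, and 0.779, 0.746 and 0.847. Without the 2 farthest strains they were 0.778 and 0.760. Pdgfrb had r = 0.586 with Col1a1 (rho = 0.538, permutation p = 1e-05), at 0.665 in BXD, 0.335 in AXB/BXA and 0.582 in the other inbred strains, and 0.549 without the 2 farthest.

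Col4a1 and Tgfb1 formed the closest pair outside the fibrillar collagens, with r = 0.682 (rho = 0.632, permutation p = 1e-05). Within families it was 0.654, 0.672 and 0.727, and 0.639 without BXD34/TyJ and BXD18/TyJ. With the fibrillar collagens Tgfb1 had lower r: it was 0.398 with Col1a2 (rho = 0.451, permutation p = 6e-05 and 1e-05), 0.241 with Col1a1 (rho = 0.251, permutation p = 0.00963 and 0.0075) and 0.112 with Col3a1 (rho = 0.178, permutation p = 0.233 and 0.0577). Adjusted over all genes, the pair with Col1a2 was called with either gene as the covariate and the pairs with Col1a1 and Col3a1 were not. The lowest r of the 36 was that of Acta2 with Tgfb1, 0.03 (rho = 0.02, permutation p = 0.779 and 0.862). These relations are across strains with 1 library each. No member was called as related to the library total, with r between -0.02 and 0.16.

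**Figure D4:**
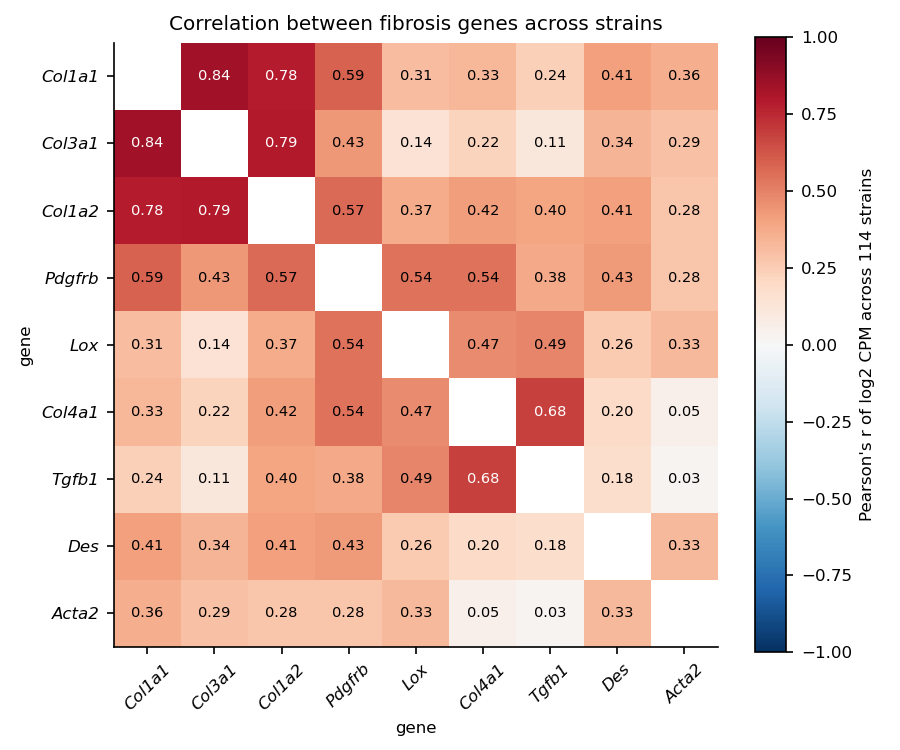
Pearson r of log2 CPM over 114 strains for each pair of the 9 members (rows and columns; colour scale as shown). The block of Col1a1, Col1a2 and Col3a1 lies between 0.78 and 0.84, Col4a1 with Tgfb1 at 0.68, and Acta2 with Tgfb1 near 0.

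**Figure D5:**
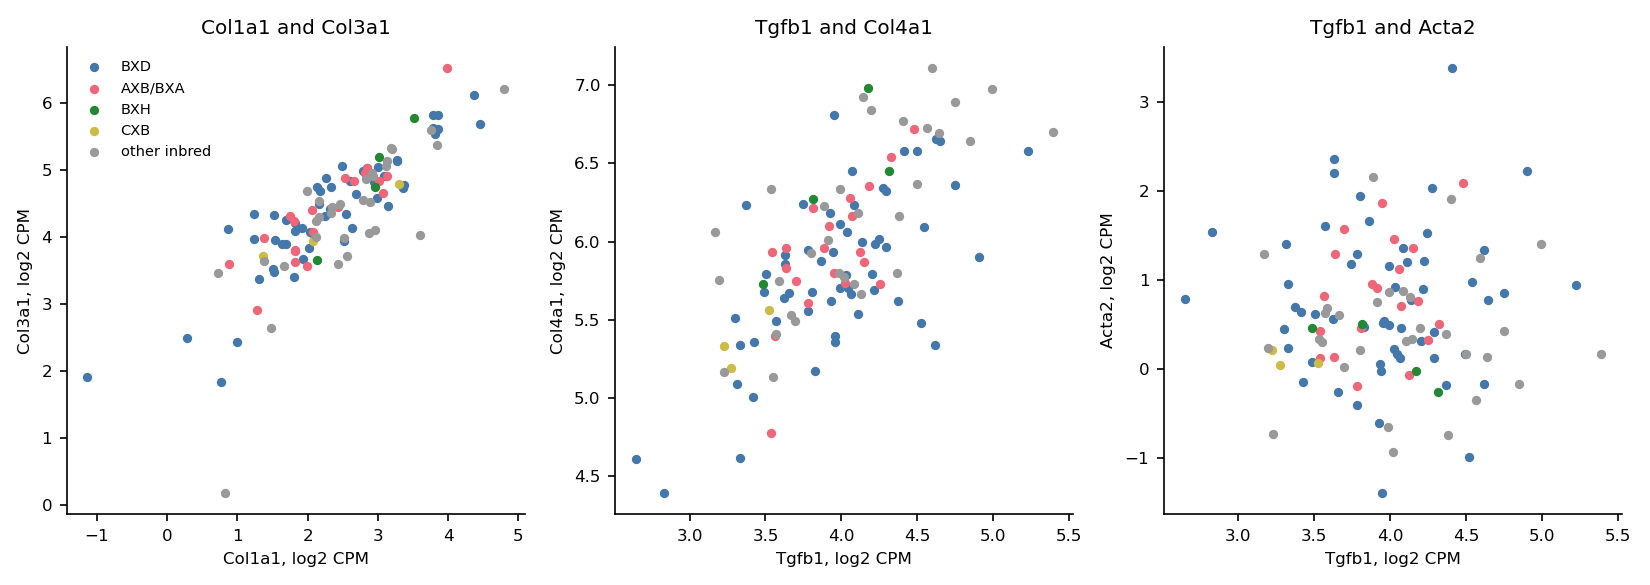
Log2 CPM (both axes) of 3 pairs of members across 114 strains; each point is a strain, coloured by family. Col3a1 is higher where Col1a1 is higher (r = 0.839), Col4a1 where Tgfb1 is (r = 0.682), and Acta2 shows no such trend with Tgfb1 (r = 0.03).

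Each member was then set against all 15694 genes that passed the filter, with limma and the member as the covariate. Col1a1 was related to 5.65% of genes, positively to 3.35%, and to 7 of the 8 other members. Without the library labelled BXD65/RwwJ it was 6, with Lox lost, and without BXD48/RwwJ and KK/HlJ 5, with Lox and Acta2 lost. Acta2 was related positively to 27 genes (0.172%) and to 1 other member, and Des to 77 genes (0.491%) and 4. Tgfb1 and Col4a1 were related positively to far more of the transcriptome, 25.5% and 23.3%, and to 5 and 6 of the members, and Lox to 23% and 7. Col1a2, Col3a1 and Pdgfrb lay between, with 9.03%, 13.3% and 15.4% of genes and 8, 5 and 8 members.

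The lists differed in how they went with Col1a1 and with Tgfb1. With Col1a1, 9 of 13 other collagens and 13 of 18 glycoproteins were called positive, with median r of 0.50 and 0.37, as were 8 of 14 stellate identity genes (median 0.30) and 6 of 10 contractile genes. Of the macrophage markers 2 of 12 were called, and none of the 8 endothelial markers or the 7 iron response genes, with medians of 0.18, 0.04 and 0.08. For Tgfb1 these 3 medians were 0.47, 0.48 and 0.50, and for Col4a1 0.32, 0.45 and 0.31. The endothelial cadherin gene Cdh5 had r = 0.729 with Tgfb1 and 0.712 with Col4a1, and the heme oxygenase gene Hmox1 0.677 and 0.618. Each was the highest of its list. All 8 endothelial markers had a positive r with both members. Of the 7 iron response genes, 5 had a positive r with Tgfb1 and 4 with Col4a1. The lowest was Hamp, at -0.206 and -0.288. The difference between Col1a1 and Tgfb1 in the list medians was not tested.

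Among contractile genes, the one closest to Acta2 was Myh11, the smooth muscle myosin heavy chain, at r = 0.774, beside a list median of 0.24. Acta2 had r = 0.361 with Col1a1 (rho = 0.235, permutation p = 9e-05 and 0.0123), 0.273 without BXD48/RwwJ and KK/HlJ, where its call over all genes was lost. Col4a1 was closest among collagens to Col4a2, r = 0.919, the gene of its partner chain. The annotated starts of these 2 genes lie head to head on chromosome 8 and share 22 bases, and whether the counting used strand is not given in the sources used here.

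The 10 genes outside the set with the highest r with Col1a1, among genes with a median of at least 1 CPM, were Col6a3 (r = 0.730, rho = 0.674), Col5a1 (0.729, 0.681), Col16a1 (0.705, 0.663), Angptl2 (0.688, 0.620), Col14a1 (0.688, 0.631), Fbln5 (0.658, 0.651), Ehd2 (0.654, 0.533), Col6a2 (0.649, 0.640), Mrc2 (0.638, 0.558) and Lama2 (0.612, 0.532). They were chosen by their r, so this is a description. Of these, 5 are collagens, Fbln5 is an elastic fibre protein, Lama2 a laminin chain and Mrc2 an endocytic collagen receptor. Without BXD48/RwwJ and KK/HlJ their r ran from 0.547 to 0.706. Within the AXB/BXA strains it ran from 0.379 for Angptl2 to 0.776 for Col16a1.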

How the data were processed

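Liver RNA of 130 male mice was sequenced with a stranded mRNA kit, per the labels. The authors deposited expected counts per gene, of which 73.5% of values in the diet table and 72.6% in the panel table are whole numbers, and TPM per gene for the same mice. Kallisto 0.46 and the mm10 build are named per the submitters' processing notes, while the strand setting used in counting is not given in the sources used here. The design assumed whole counts, so the deposited expected counts were rounded. Diet and panel tables were made separately and never pooled. Symbols and gene coordinates are from GENCODE M21 (GRCm38) and matched 34845 of 35274 and 35612 of 35711 IDs.

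Tests used edgeR 4.0.16 in R 4.3.3 (TMM, filterByExpr, glmQLFit, two-sided, no covariates). The 15 diet mice were fitted together, and 7 contrasts that share mice were taken. The BXD and AXB/BXA strains were fitted alone. Relations across strains used log2 CPM with a prior count of 2, limma 3.58.1 and 100000 permutations. The methods were tested on simulated data. The alternatives were RLE factors, no filter, the compared groups alone, DESeq2 1.42.0, limma on log2(TPM + 1) and log2(TPM + 0.1), each mouse left out, and parts of the panel. Replicates are separate mice; each of 15 replicate pairs differed beyond sampling noise. The labels give no batch. Library totals of 9.41 to 20.6 M counts limit the precision of low genes such as Timp1 and Lox.

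The 10 members, the lists and the rules were chosen with earlier results of these data known. Besides the members, the named genes are the up to 8 largest called rises and up to 6 largest called falls of the lists at a mean of at least 1 CPM for 2% iron against 50 ppm and chow and for chow against 50 ppm, the 10 genes closest to Col1a1, and the extremes of single lists, which were picked after their values were seen. A gene that this rule names is not reported here.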

Additional observations from a re-analysis of the deposited data

How the results depend on the processing

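Over 36 single-gene values, all called in the main fit, 678 alternatives kept direction and call, 78 lost the call and none reversed. Calls gained by a gene that was not called in the main fit are outside this tally. Col16a1, Col5a1 and Bmp1 lost theirs most often. The number of members called on 2% iron against 50 ppm was 1, 2 with these groups fitted alone, 0 with limma on either TPM scale, and 1 to 2 with single mice left out, where Lox or Tgfb1 entered. Against 500 ppm it was 0 with limma on either TPM scale and 1 to 2 with single mice left out. Against chow it was 4 to 8 with single mice left out, and for chow against 50 ppm 1 with DESeq2. The called pairs of members (31) fell to 7 in the AXB/BXA strains alone and 13 in the other inbred strains alone. Adjusted over all genes, an alternative chosen after seeing the data, they were 22. The share of genes related to Col1a1 (5.65%) was 10.5% on log2(TPM + 1), 2.76% in BXD alone, 0.0191% in AXB/BXA alone, 0.0765% in the other inbred strains alone, and 3.33% without the 2 strains farthest in Col1a1. The members among them (7) were 5 in BXD alone, 1 in AXB/BXA alone, 2 in the other inbred strains alone, and 5 without the 2 farthest strains. These parts of the panel hold fewer strains. On log2(TPM + 1) 10.3% of genes were called positive and 0.198% negative, beside 3.35% and 2.30%. Without the library labelled BXD65/RwwJ, 30 pairs were called, and 4.75% of genes and 6 members were related to Col1a1. No paired analysis was possible because the labels give the mice no replicate numbers. Depth limits Lox and Timp1, whose counts were too few for the filter in the diet mice and in the fit of BXD and AXB/BXA strains. Over the whole panel Lox passed the filter at low counts and Timp1 did not.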
